A study of Mus musculus with 4 samples.

Results

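Imprinted genes are the genes of which a mammal uses mainly the copy inherited from 1 parent. Here they were 36 named mouse genes, taken by symbol from the deposited expression table, which lists 21881 symbols. All 36 were found, 21 known as paternally expressed and 15 as maternally expressed. The genes were measured by mRNA sequencing in 4 cultures of immortalised monoclonal mesenchymal stem cells from adult C57BL/6 mouse bone marrow. The cells were Dicer f/f with Dicer intact, and all had been infected with a puromycin-selectable pMMP-puro retrovirus. Clone 6 and clone 12 each gave 1 culture with the retrovirus for Flag-HA-tagged NR6A1 (NR6A1 group, n = 2) and 1 with the empty retrovirus (vector group, n = 2). NR6A1 is a nuclear receptor without a known ligand that is normally made in embryos and germ cells, and here the virus made it in adult cells. Each line is a single clone, and nothing in the labels names further cultures, so every p-value speaks of these 4 cultures alone. The spread used for a gene was in large part that of all genes tested, since 4 cultures leave little of its own.

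Imprinting is set in the egg or the sperm by DNA methylation at control regions, which later keep a gene or a whole cluster silent on 1 parental chromosome. Many paternally expressed genes promote growth of the embryo and placenta, and several maternally expressed ones restrain it. Most of these genes are high before birth and fall in adult tissue. For some, such as Ube3a in neurons, the preference for 1 parent exists in certain tissues only. All cells were of 1 inbred strain and the table gives 1 value per gene, so the parental alleles were not told apart. The grouping into maternal and paternal genes below is background knowledge and not a measurement.

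Values are FPKM, fragment counts normalised to transcript length and library size, as the authors deposited them. In such bulk RNA fewer expressing cells and less RNA per cell cannot be told apart. The depth of the libraries, inferred from the steps between low values, was 20400000 to 24200000 reads, at which 3 reads on a transcript of 2000 bases come to 0.0693 to 0.0822 FPKM. Nr6a1 was at 783 and 598 FPKM in the NR6A1 cultures of clone 6 and clone 12, against 4.18 and 2.80 FPKM with vector, higher in the cultures labelled NR6A1. Of 11 markers of mesenchymal stem cells 10 were at 2.10 to 2404 FPKM in all libraries, while Thy1, which encodes a surface antigen used to define these cells, was listed at 0 in 3 libraries and at 0.0297 FPKM in the vector culture of clone 6. Blood and endothelial markers stayed at 0.154 FPKM or less. The 4 neuronal markers summed to 3.10 to 3.90 FPKM, nearly all of it Tubb3. Of the 3 epithelial markers the adhesion genes Epcam and Cdh1 stayed at 0.0523 FPKM or less, and the keratin gene Krt14 reached 12.9 FPKM in the vector culture of clone 6. Krt14 was 0.0477-fold in clone 6 and 0.199-fold in clone 12 with NR6A1 over vector (limma adjusted p = 0.521).

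Many imprinted genes best known from growth before birth were near 0 in both lines, with either virus. Of the 36 genes 15 were under 0.2 FPKM in every library, where the inferred number of reads was at most 5.98. This share of 41.7% lay near the 39.0% of all symbols in the table under the same limit. H19, the maternally expressed long noncoding RNA, was at 0.0865 and 0 FPKM in the NR6A1 cultures of clone 6 and clone 12, against 0.119 and 0.0180 FPKM with vector. Peg3, a paternally expressed zinc finger gene, was at 0.00736 and 0.00838 FPKM with NR6A1, against 0 and 0.00677 FPKM with vector, which is less than 2 reads in any library (at most 1.45). A fall with NR6A1, or a change that stays within this range, was not detectable at this depth.

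All members of the Dlk1-Meg3 and Peg3 clusters were in this group. In the Dlk1-Meg3 cluster all 4 genes were near 0. Dlk1, a membrane protein that holds back fat cell formation, reached 0.00239 FPKM, the long noncoding RNA Meg3 reached 0.00183 FPKM, and Rtl1, a placental gene derived from a retrotransposon, reached 0.0122 FPKM. Dio3, the deiodinase that inactivates thyroid hormone, was read in the vector culture of clone 6 alone, at 0.0739 FPKM. In the Peg3 cluster Usp29, a ubiquitin peptidase gene, reached 0.00171 FPKM and the zinc finger gene Zim1 was listed at 0 in all 4 libraries. Nap1l5, a paternally expressed gene related to nucleosome assembly proteins, was at 0.0109 and 0.0772 FPKM in the NR6A1 cultures of clone 6 and clone 12, against 0.116 and 0.149 FPKM with vector.

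In the Snrpn-Ube3a cluster, the region whose loss in people gives the Prader-Willi and Angelman syndromes, the maternally expressed ubiquitin ligase gene Ube3a was the member at a high level. It had 17.2 and 18.3 FPKM in the NR6A1 cultures of clone 6 and clone 12, against 22.0 and 15.9 FPKM with vector. The paternally expressed members were low or silent. Snrpn, which encodes a protein of the splicing machinery, ranged from 0.153 to 0.328 FPKM and Mkrn3, known as a brake on puberty, from 0.122 to 0.259 FPKM. The MAGE family genes Ndn and Magel2 reached 0.0652 and 0 FPKM, and Peg12 reached 0.00499 FPKM. In a later annotation (GENCODE, GRCm38) 27.3% of the exon bases of Ube3a lie opposite exons of other genes, and 27.3% of those of Snrpn are shared with genes on its own strand, so reads could have been split between such genes.

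In the Kcnq1ot1-Cdkn1c cluster, with 7 of the 36 genes, 3 maternally expressed genes reached a mean of 1 FPKM. The tetraspanin gene Cd81 was at 125 and 110 FPKM in the NR6A1 cultures of clone 6 and clone 12, against 97.9 and 106 FPKM with vector. Tssc4 had 27.2 and 26.9 FPKM with NR6A1, against 25.7 and 26.1 FPKM with vector. Cdkn1c, the cyclin-dependent kinase inhibitor p57, was at 1.70 and 3.69 FPKM with NR6A1, against 1.66 and 4.14 FPKM with vector. Kcnq1ot1, the paternally expressed long noncoding RNA that silences this cluster in cis, reached 0.00101 FPKM, about 2.15 reads over a very long transcript, and the placental transcription factor gene Ascl2 was listed at 0 throughout.

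The levels of the expressed genes spanned from 1.29 FPKM, the mean of Nnat, to 764 FPKM, the mean of Gnas. Genes were tested where the 4 libraries averaged 1 FPKM or more, which kept 15 of the 36 genes (41.7%), against 51.9% of all symbols. It kept 8 of the 21 paternally expressed genes and 7 of the 15 maternally expressed ones. Of the 10 genes known for a parental preference limited to some tissues 6 were kept, and their median over all 10 was 22.4 FPKM, while 9 of the other 26 were kept, with a median of 0.149 FPKM over the 26. Between filter and silence lay 6 genes that reached 0.2 FPKM in some library: Slc38a4, Asb4, Phlda2, Ppp1r9a, Snrpn and Mkrn3. Slc38a4, an amino acid transporter gene with a mean of 0.973 FPKM, was the one nearest below the filter, and Nnat the one nearest above it. Slc38a4 had 0.684 and 0.679 FPKM in the NR6A1 cultures of clone 6 and clone 12, against 1.87 and 0.658 FPKM with vector, so the vector culture of clone 6 was the high one.

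**Figure D1:**
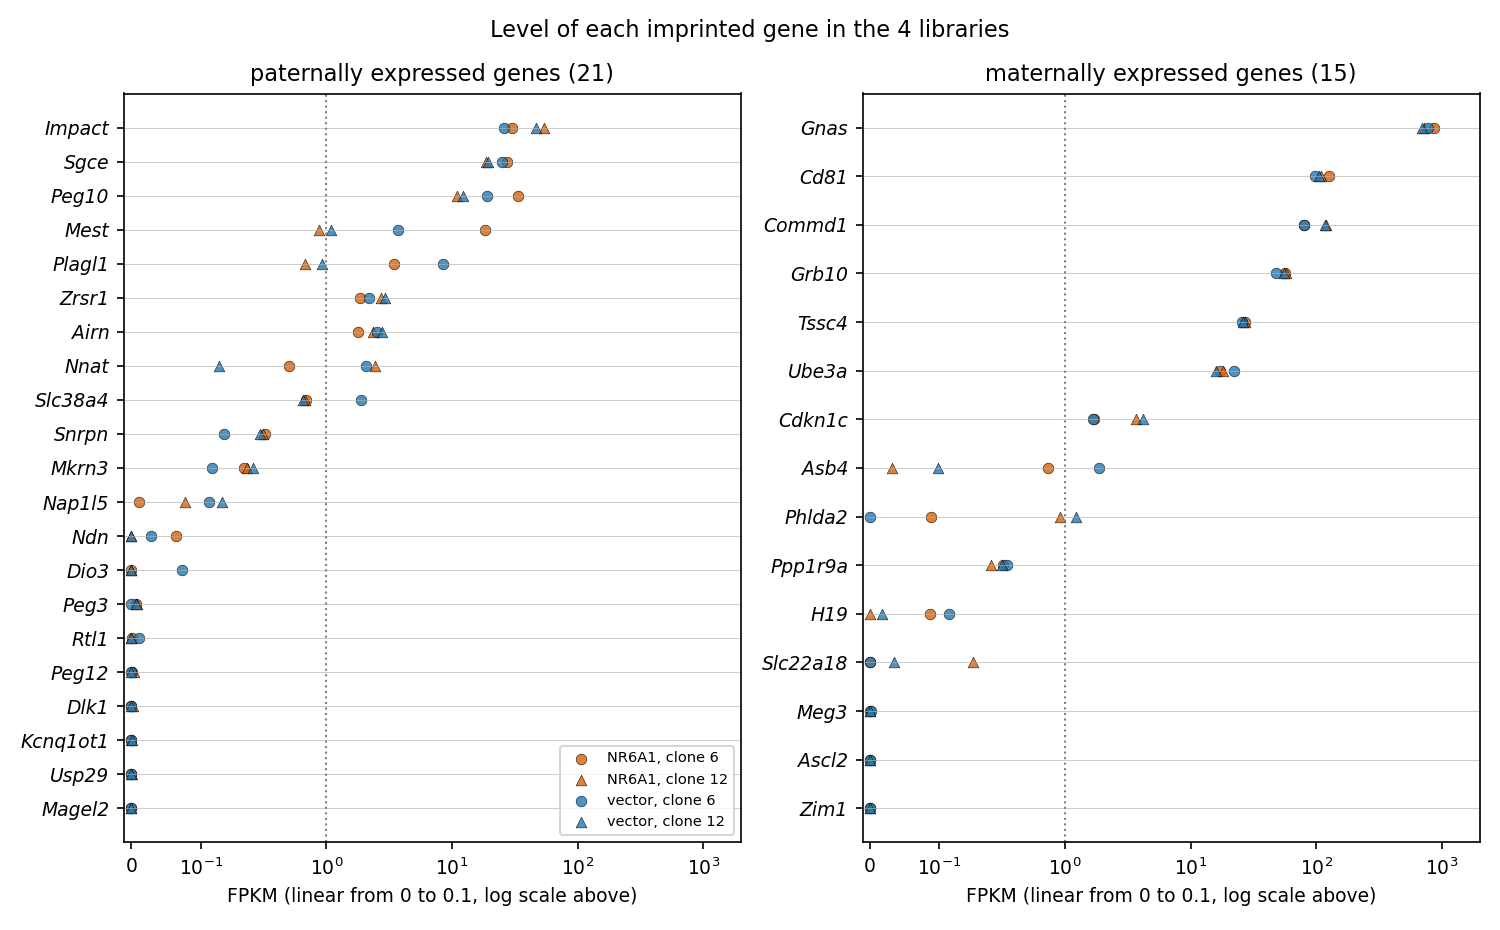
Level of the 36 imprinted genes in FPKM (linear from 0 to 0.1, logarithmic above), paternally expressed genes on the left and maternally expressed on the right, with 1 point per library, orange for NR6A1 and blue for vector, circles for clone 6 and triangles for clone 12. The dotted line marks 1 FPKM. Gnas, Cd81 and Commd1 lead, 15 genes lie under 0.2 FPKM in all 4 libraries, and the points of Mest, Plagl1, Nnat, Asb4 and Phlda2 are the most spread out.

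The comparison of NR6A1 with vector asked whether NR6A1 alters imprinted genes in adult cells. No imprinted gene passed the threshold, and of the 4 genes that differed at least 1.5-fold in clone 6, Nnat alone did so in clone 12 too, in the opposite direction. Levels were tested as log2(FPKM + 1) by limma with clone as a block, with Benjamini-Hochberg adjustment at 0.05 over the 11346 genes tested. Of these, 4 passed (0.0353%), 3 higher (0.0264%) and 1 lower (0.00881%), so a count of 0 among 15 genes is near the background. At an unadjusted p under 0.05 stood 1 of the 15 genes, Impact, against 8.48% of all genes tested, and no imprinted gene passed under any other setting tried.

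Among the maternally expressed genes tested the widest log2 difference within a clone was 0.35, for Cd81 in clone 6. Of the 7 tested, 5 were higher with NR6A1 in both clones and none was lower in both, where 28.9% of all genes tested were higher and 29.4% lower in both. Some of the 5 changes were very small, with Commd1 at 1.006-fold in clone 6 and 1.03-fold in clone 12, and Tssc4 at 1.06-fold and 1.03-fold. The 5 genes averaged 26.5 to 764 FPKM, and the share over all genes was not matched for level. All 5 belong to the 6 tested genes known for a parental preference limited to some tissues. Cdkn1c, which is not among those 6, went opposite ways in the clones. The median log2 difference of the 7 maternally expressed genes was 0.06, against 0.00098 over all genes tested. Gnas, which encodes the stimulatory G protein alpha subunit, had 861 and 724 FPKM in the NR6A1 cultures of clone 6 and clone 12, against 776 and 697 FPKM with vector. Grb10, an adaptor that dampens insulin receptor signalling, had 56.4 and 57.2 FPKM with NR6A1, against 47.5 and 54.8 FPKM with vector. The NR6A1 and vector cultures did not overlap for Grb10, Cd81 and Tssc4, and they overlapped for Gnas. Over all 15 genes 4 had groups without overlap, the fourth being Airn, where 20.4% of all genes tested did.

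Cd81 had the widest difference of these genes, a log2 difference of 0.21 ± 0.10 (SE, limma adjusted p = 0.646), 0.35 in clone 6 and 0.06 in clone 12. Commd1, a gene of copper handling and of NF-kB control, was at 80.0 and 120.5 FPKM with NR6A1, against 79.5 and 117.5 FPKM with vector. Cdkn1c differed by 0.02 in clone 6 and by -0.13 in clone 12 on the log2 scale, and Ube3a by -0.33 and 0.19. Gnas codes for several overlapping transcripts of different parental preference, which a single value per gene does not separate.

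Among the tested genes the widest differences were in paternally expressed ones. The groups also differed in level, and its part was not tested. Mest, Plagl1 and Nnat averaged 1.29 to 5.98 FPKM, and the tested maternally expressed genes other than Cdkn1c 18.3 to 764 FPKM. The levels were not fully apart. Peg10, which also differed at least 1.5-fold in clone 6, averaged within the range of those maternally expressed genes. Cdkn1c averaged within the range of Mest, Plagl1 and Nnat. In clone 6, 4 of the 15 tested genes differed at least 1.5-fold, all of them paternally expressed, where 9.27% of all genes tested did. In clone 12 the count was 1 of 15, Nnat, where 6.04% of all genes tested did.

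Mest, a paternally expressed gene for an enzyme-like protein of the alpha/beta hydrolase fold, was at 18.2 and 0.869 FPKM in the NR6A1 cultures of clone 6 and clone 12, against 3.71 and 1.09 FPKM with vector. NR6A1 over vector was 4.92-fold in clone 6 and 0.796-fold in clone 12. The group means were 9.56 ± 12.3 FPKM with NR6A1 and 2.40 ± 1.85 FPKM with vector (SD, n = 2 each), and the groups overlapped. The pooled log2 difference of 0.93 ± 0.57 (SE) had a limma adjusted p of 0.666. In a later annotation 23.1% of the exon bases of Mest lie opposite exons of Copg2. Copg2 was at 22.5 and 15.1 FPKM with NR6A1, against 24.7 and 17.0 FPKM with vector, so it was lower with NR6A1 in both lines.

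Peg10, a placental gene derived from a retrotransposon, was at 33.9 and 10.9 FPKM in the NR6A1 cultures of clone 6 and clone 12, against 19.1 and 12.3 FPKM with vector. This was 1.77-fold in clone 6 and 0.888-fold in clone 12, and the pooled log2 difference was 0.32 ± 0.25 (SE, limma adjusted p = 0.724). Its divergently transcribed neighbour Sgce, which encodes epsilon-sarcoglycan, had 27.3 and 18.7 FPKM with NR6A1, against 25.2 and 19.5 FPKM with vector. Sgce thus showed 1.08-fold and 0.959-fold, the same directions as Peg10 at a smaller size.

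Plagl1, a zinc finger transcription factor known in the mouse as a regulator of other imprinted genes, was at 3.46 and 0.673 FPKM in the NR6A1 cultures of clone 6 and clone 12, against 8.43 and 0.920 FPKM with vector. It was lower with NR6A1 in both lines, 0.411-fold in clone 6 and 0.731-fold in clone 12. The pooled log2 difference was -0.64 ± 0.26 (SE, limma adjusted p = 0.633). The vector culture of clone 6 was the highest for Plagl1, Slc38a4, Asb4 and the epithelial marker Krt14, while Epcam and Cdh1 were near 0 in all libraries, and the part of that library in the difference was not tested. Nnat, the small membrane protein neuronatin, was at 0.509 and 2.46 FPKM with NR6A1, against 2.07 and 0.140 FPKM with vector, so it was lower in clone 6 and higher in clone 12. Its values stood for 62.2 inferred reads at most, and the pooled log2 difference was 0.29 ± 0.69 (SE, limma adjusted p = 0.907).

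**Figure D2:**
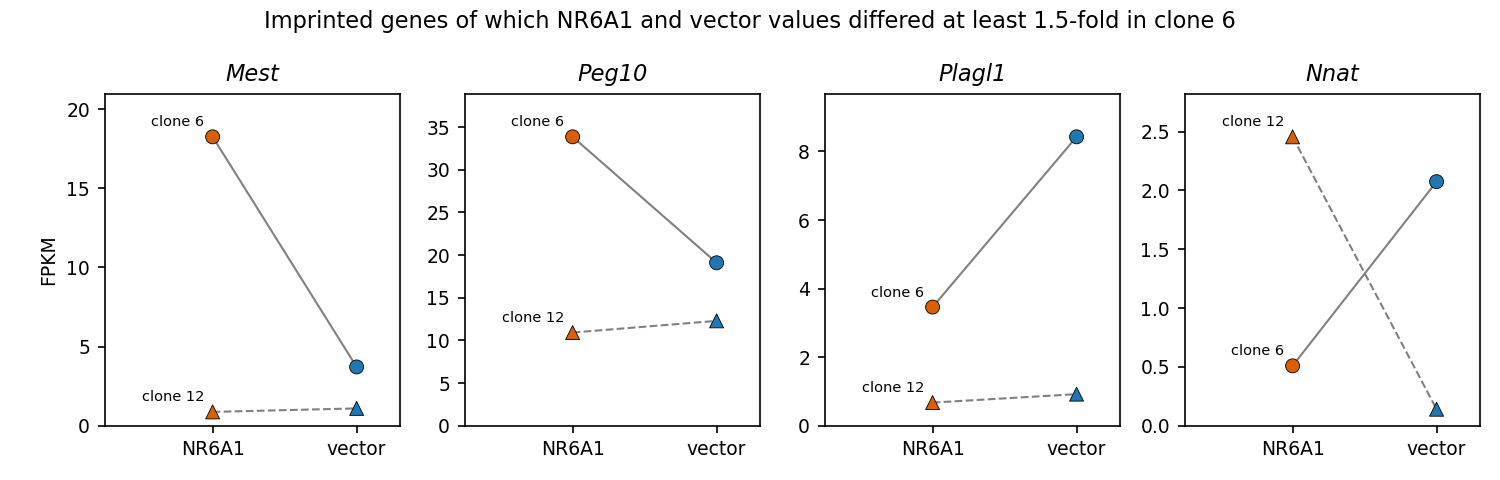
FPKM of Mest, Peg10, Plagl1 and Nnat in NR6A1 and vector cultures, with 1 point per library, lines joining the cultures of the same clone, circles for clone 6 and triangles for clone 12. In clone 6 Mest and Peg10 were higher and Plagl1 and Nnat lower with NR6A1, while in clone 12 Mest, Peg10 and Plagl1 stayed close and Nnat was higher.

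The other tested paternally expressed genes differed by less than 1.5-fold in either clone. Impact, whose protein restrains the amino acid sensor kinase GCN2, was at 30.1 and 54.1 FPKM in the NR6A1 cultures of clone 6 and clone 12, against 26.02 and 46.8 FPKM with vector. It was higher with NR6A1 by a log2 difference of 0.20 in both clones (pooled SE 0.07, unadjusted p = 0.0464, limma adjusted p = 0.586). Airn, a long noncoding RNA that silences neighbouring genes in cis, was at 1.78 and 2.36 FPKM with NR6A1, against 2.55 and 2.77 FPKM with vector, with a limma adjusted p of 0.656. Airn is transcribed across a gene on the opposite strand, and the strand setting of the counting is not given in the sources used here. Zrsr1, a relative of the splicing factor subunit U2AF, was at 1.85 and 2.73 FPKM with NR6A1, against 2.20 and 2.95 FPKM with vector. Over the 8 paternally expressed genes tested, 1 was higher in both clones (Impact), 3 were lower in both (Plagl1, Airn, Zrsr1) and 4 went opposite ways, and the median log2 difference was 0.11.

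Some genes below the filter, which were not tested, had wide folds as well. Asb4, maternally expressed, was at 0.736 and 0.0315 FPKM in the NR6A1 cultures of clone 6 and clone 12, against 1.85 and 0.0987 FPKM with vector. NR6A1 over vector was 0.398-fold in clone 6 and 0.320-fold in clone 12, where the NR6A1 culture held at most 1.98 inferred reads. Slc38a4 was 0.365-fold in clone 6 and 1.03-fold in clone 12. At no more than 13.9 inferred reads in any library, Snrpn was 2.14-fold and Mkrn3 1.81-fold in clone 6, against 1.05-fold and 0.906-fold in clone 12. Nap1l5 was 0.0942-fold in clone 6 and 0.519-fold in clone 12. In clone 6 it held at most 0.377 inferred reads with NR6A1 and 4.59 with vector.

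Directions were opposite in the clones for 6 of the 15 genes (Mest, Cdkn1c, Peg10, Nnat, Sgce and Ube3a), where 41.1% of all genes tested had opposite directions. The difference between the clones' changes could not be tested, since a fit with an interaction leaves no residual degree of freedom.

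**Figure D3:**
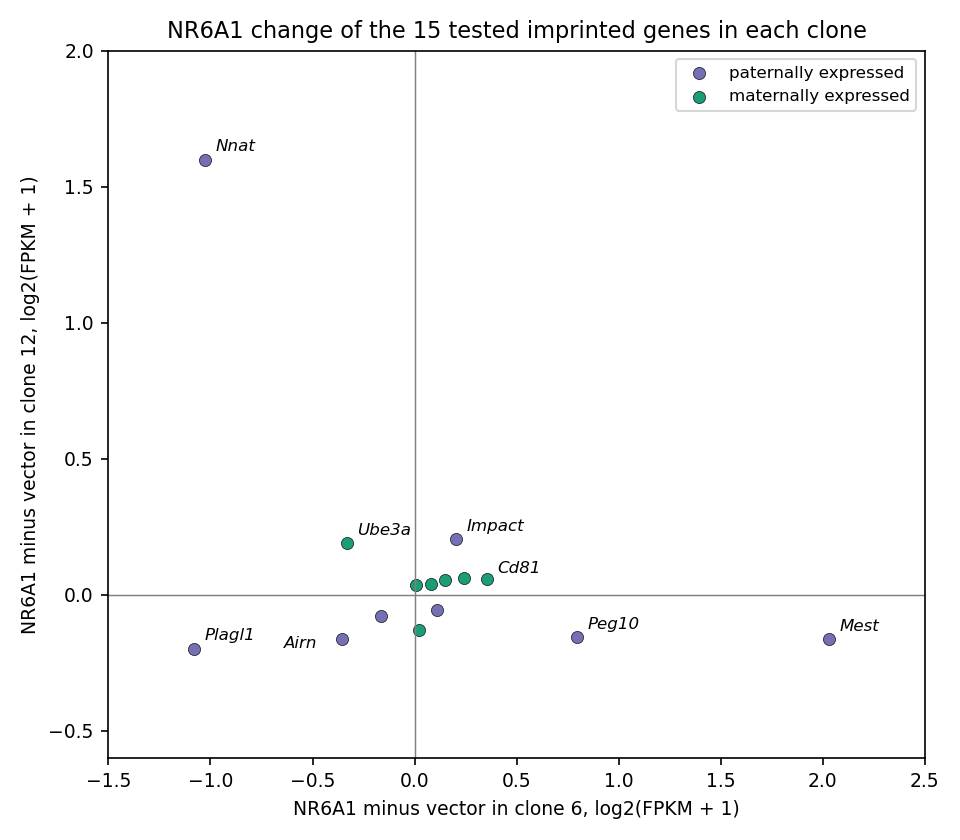
NR6A1 minus vector on the log2(FPKM + 1) scale in clone 6 (horizontal) and in clone 12 (vertical) for the 15 tested imprinted genes, purple for paternally and green for maternally expressed. Mest and Peg10 lie to the right and Plagl1 to the left at small vertical values, Nnat stands alone at the upper left, and the maternally expressed genes lie near the origin.

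The promoters of Mest and Plagl1, whose values varied widely, and of Commd1, which differed between the lines, are shown here with the motif of ZFP57, TGCCGC, the zinc finger protein that guards methylated imprints in the embryo. The sequences are those of RefSeq (GRCm38.p6), from 250 bases before to 50 bases after a transcript start, and 30 of the 36 genes had an entry there, with 45 promoters. Either strand was searched, and capitals mark the motif or its reverse complement.
Mest, chr6:30737800-30738099, plus strand: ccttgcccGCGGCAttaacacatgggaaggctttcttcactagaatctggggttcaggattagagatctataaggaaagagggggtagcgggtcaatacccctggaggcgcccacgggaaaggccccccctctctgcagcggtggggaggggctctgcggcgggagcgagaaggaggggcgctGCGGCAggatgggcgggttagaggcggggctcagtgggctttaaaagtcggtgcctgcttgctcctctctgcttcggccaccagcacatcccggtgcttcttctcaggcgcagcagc
Plagl1, chr10:13090582-13090881, plus strand: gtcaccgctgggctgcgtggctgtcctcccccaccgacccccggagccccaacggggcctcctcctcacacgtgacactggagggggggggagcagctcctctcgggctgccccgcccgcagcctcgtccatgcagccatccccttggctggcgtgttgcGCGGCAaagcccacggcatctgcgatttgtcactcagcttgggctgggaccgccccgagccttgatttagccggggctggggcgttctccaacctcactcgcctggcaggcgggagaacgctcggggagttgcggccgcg
Commd1, chr11:22982235-22982534, minus strand: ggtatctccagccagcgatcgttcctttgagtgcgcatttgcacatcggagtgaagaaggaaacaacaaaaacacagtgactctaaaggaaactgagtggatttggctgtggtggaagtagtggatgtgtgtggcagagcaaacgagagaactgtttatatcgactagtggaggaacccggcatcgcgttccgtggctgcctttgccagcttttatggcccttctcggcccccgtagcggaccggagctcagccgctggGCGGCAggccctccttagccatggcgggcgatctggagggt
Mest held 2 matches in this window, and Plagl1 and Commd1 held 1 each. Of the 45 promoters 10 held TGCCGC (22.2%), 11.6% of all 32851 promoters did, and the median number of CpG dinucleotides was 13 in the 45 promoters and 7 over all promoters. The 10 belonged to 9 genes, the 3 shown and Grb10, Meg3, Nap1l5, Nnat, Snrpn and Zim1. Mest, Grb10 and Nnat did not pass between the lines, and Impact, Cdkn1c and Sgce, which passed, were not among the 9. Genes without a promoter entry could not be searched. Whether the motif goes with a difference was not tested.

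NR6A1 is known to bind a direct repeat of AGGTCA without a spacer, AGGTCAAGGTCA. That element was in none of the 45 promoters and in 0.00609% of all promoters. The extended single unit TCAAGGTCA was likewise in none of the 45 and in 0.423% of all. The single unit AGGTCA, which the longer motifs contain, was in 2 of the 45 (4.44%) and in 16.3% of all promoters. These 2 belonged to Meg3 and Airn and are shown because they are the places where the unit was met, with the unit or its reverse complement in capitals.
Meg3, chr12:109545148-109545447, plus strand: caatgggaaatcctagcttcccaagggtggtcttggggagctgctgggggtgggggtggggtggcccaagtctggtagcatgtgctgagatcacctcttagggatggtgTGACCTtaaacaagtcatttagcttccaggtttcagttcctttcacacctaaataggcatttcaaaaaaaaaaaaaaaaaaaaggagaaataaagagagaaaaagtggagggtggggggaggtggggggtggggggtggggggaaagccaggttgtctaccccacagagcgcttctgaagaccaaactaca
Airn, chr17:12741061-12741360, plus strand: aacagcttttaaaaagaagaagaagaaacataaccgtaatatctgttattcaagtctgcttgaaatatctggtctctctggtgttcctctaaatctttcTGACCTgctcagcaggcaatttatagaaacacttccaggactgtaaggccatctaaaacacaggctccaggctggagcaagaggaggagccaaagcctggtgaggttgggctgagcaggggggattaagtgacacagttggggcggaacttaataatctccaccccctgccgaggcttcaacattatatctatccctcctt
A match is a description of the letters, and the windows leave out anything farther from the start.

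The comparison of clone 12 with clone 6 asked how the 2 lines differ in imprinted genes. Of the 15 genes tested 5 passed the threshold (33.3%), where 21.9% of all genes tested passed. Commd1, Impact and Cdkn1c were higher in clone 12 (11.5% of all genes were called higher), and Plagl1 and Sgce lower (10.5% of all genes were called lower). The test was the same limma fit with virus as the other term. The cultures of 1 clone share their line, so this compares 2 lines and not 2 kinds of cell. The values of the 2 clones did not overlap for 9 of the 15 genes, where 68.0% of all genes tested had no overlap. In clone 12 the level was higher with both viruses for 6 of the 15 (43.9% of all genes tested) and lower with both for 5 (35.9%). Markers of mesenchymal stem cells differed between the lines too. Ly6a, the stem cell antigen Sca-1, was at 125 and 317 FPKM in clone 12 (NR6A1 and vector), against 9.31 and 18.98 FPKM in clone 6 (limma adjusted p = 0.00362). The collagen gene Col1a1 was lower, at 693 and 522 FPKM in clone 12, against 1422 and 1547 FPKM in clone 6 (limma adjusted p = 0.0225). Cd44 was higher and Pdgfra lower in clone 12 (limma adjusted p = 0.0273 and 0.0237), and the other 6 of the 10 expressed markers did not pass. The summed level of the 11 markers was 4583 and 4363 FPKM in clone 12, against 5593 and 5949 FPKM in clone 6. The lower sum follows the 2 collagen genes, with Col1a2 at 897 and 870 FPKM in clone 12, against 1273 and 1935 FPKM in clone 6. It does not stand for each marker, since Ly6a and Cd44 were higher in clone 12. The part of these marker differences in those of imprinted genes was not tested.

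Plagl1 was at 0.673 and 0.920 FPKM in clone 12 (NR6A1 and vector), against 3.46 and 8.43 FPKM in clone 6, a log2 difference of -1.86 ± 0.26 (SE, limma adjusted p = 0.0269). Mest was at 0.869 and 1.09 FPKM in clone 12, against 18.2 and 3.71 FPKM in clone 6, a log2 difference of -2.27 ± 0.57 (SE, limma adjusted p = 0.0636). Both paternally expressed genes were thus near 1 FPKM in clone 12 with either virus, and only Plagl1 passed. Impact was at 54.1 and 46.8 FPKM in clone 12, against 30.1 and 26.02 FPKM in clone 6, higher by 0.82 ± 0.07 on the log2 scale (SE, limma adjusted p = 0.0162).

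The clusters with several measured genes are given next. In the Peg10-Sgce cluster, Sgce was at 18.7 and 19.5 FPKM in clone 12, against 27.3 and 25.2 FPKM in clone 6, lower by a log2 difference of -0.43 ± 0.08 (SE, limma adjusted p = 0.0412). Peg10 was at 10.9 and 12.3 FPKM in clone 12, against 33.9 and 19.1 FPKM in clone 6, with a log2 difference of -1.07 ± 0.25 (SE, limma adjusted p = 0.0563). Asb4, a maternally expressed gene of the ubiquitin ligase adaptor kind that lay below the filter, was at 0.0315 and 0.0987 FPKM in clone 12, against 0.736 and 1.85 FPKM in clone 6. Ppp1r9a, which encodes the actin-binding protein neurabin, was close in both, at 0.256 and 0.314 FPKM in clone 12, against 0.322 and 0.345 FPKM in clone 6. All 4 of these genes, maternally and paternally expressed, had their lower values in clone 12 with either virus, where 35.9% of all genes tested did. Asb4 and Ppp1r9a were not tested. The region does not go 1 way throughout. Of other imprinted genes there, Casd1 and Tfpi2 were lower and Pon2 and Pon3 higher in clone 12 with either virus, none past the threshold.

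In the Kcnq1ot1-Cdkn1c cluster the values of 3 maternally expressed genes were higher in clone 12. Cdkn1c was at 3.69 and 4.14 FPKM in clone 12, against 1.70 and 1.66 FPKM in clone 6, a log2 difference of 0.87 ± 0.14 (SE, limma adjusted p = 0.031). In a later annotation 30.65% of the exon bases of Cdkn1c lie opposite exons of another gene. Phlda2, which limits growth of the placenta, was at 0.907 and 1.22 FPKM in clone 12, against 0.0881 and 0 FPKM in clone 6, and the organic cation transporter gene Slc22a18 at 0.184 and 0.0354 FPKM, against 0 and 0 FPKM. These 2 genes were below the filter, at no more than 15.2 and 5.03 inferred reads. Cd81 and Tssc4, in the same cluster, did not pass, with log2 differences of -0.04 ± 0.10 and 0.00027 ± 0.07 (SE, limma adjusted p = 0.79 and 0.998).

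In the Zrsr1-Commd1 pair, where Zrsr1 lies inside an intron of Commd1, Commd1 was at 120.5 and 117.5 FPKM in clone 12, against 80.0 and 79.5 FPKM in clone 6, a log2 difference of 0.57 ± 0.07 (SE, limma adjusted p = 0.0228). Zrsr1 was at 2.73 and 2.95 FPKM in clone 12, against 1.85 and 2.20 FPKM in clone 6, with a limma adjusted p of 0.153. Of the exon bases 6.94% of Commd1 and 9.17% of Zrsr1 lie opposite exons of another gene, including those of the partner. Grb10 (log2 difference 0.11), Airn (0.18), Gnas (-0.20), Ube3a (-0.18) and Nnat (-0.12) did not pass, with limma adjusted p from 0.145 for Gnas to 0.912 for Nnat.

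**Figure D4:**
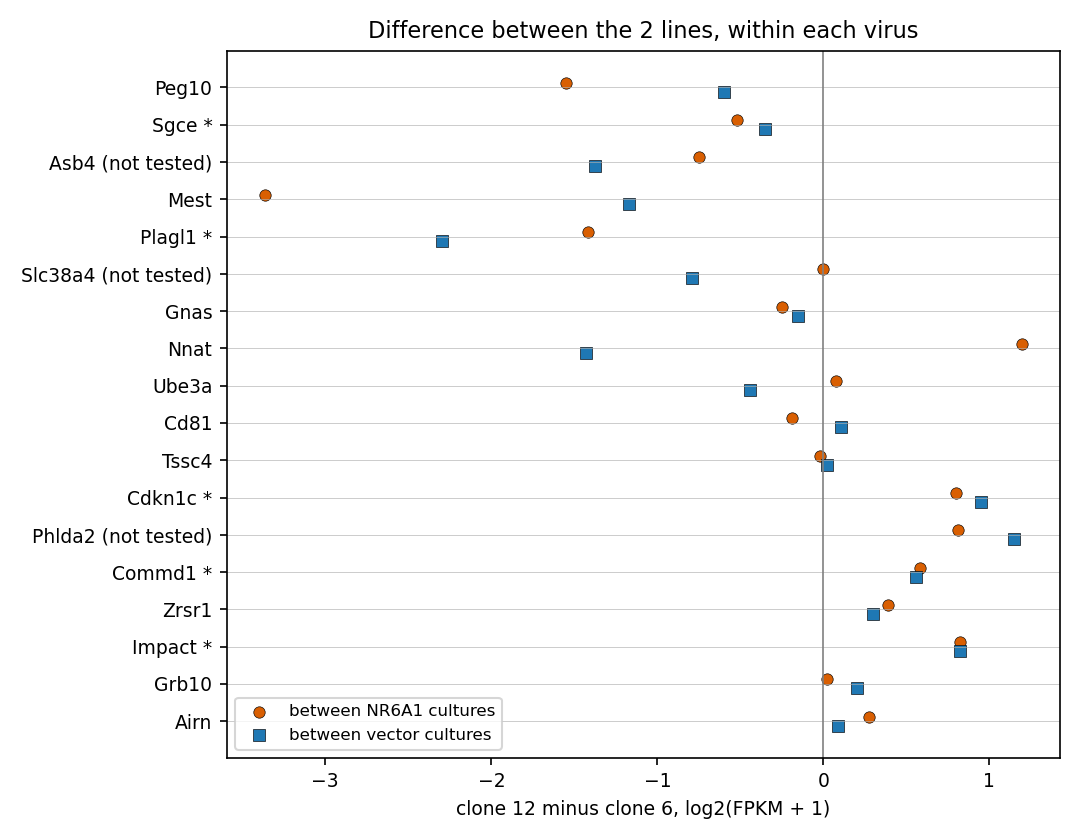
Clone 12 minus clone 6 on the log2(FPKM + 1) scale, between NR6A1 cultures (orange circles) and between vector cultures (blue squares), for the 15 tested imprinted genes and for Asb4, Phlda2 and Slc38a4, which were not tested. A star marks the 5 genes past the threshold. Peg10, Sgce, Asb4, Mest and Plagl1 lie left of 0 and Cdkn1c, Phlda2, Commd1, Zrsr1 and Impact right of 0 with either virus. Nnat changes side, and so do Ube3a, Cd81 and Tssc4 at smaller values.

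The 5 calls between clones depended on the filter and on single libraries. With no filter on low values limma called no gene of 17887 (5360 at an unadjusted p under 0.05), and the 5 genes then had adjusted p from 0.0798 to 0.0992. With 1 library left out, which also removes the virus term, Plagl1 and Commd1 passed without the NR6A1 library of clone 6 (adjusted p = 0.0311 and 0.0468), and none of the 5 passed when any of the other 3 libraries was left out (adjusted p up to 0.234). Their directions stayed in all these fits, with a log2 difference of Plagl1 between -2.40 and -1.32. Mest passed without the vector library (adjusted p = 0.0386, log2 difference -3.28) or the NR6A1 library of clone 6 (adjusted p = 0.049, -1.25).

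Imprints are kept by a set of proteins that read or write methylation, and 26 of the 30 such regulators listed reached the filter. None passed for NR6A1 against vector, with 2 at an unadjusted p under 0.05 (Suz12, a Polycomb subunit gene, and Hells, a chromatin remodeller gene, both named after their values were seen), where 8.48% of all genes tested were. Between the lines 3 of the 26 were higher and 1 lower in clone 12, where 11.5% of all genes tested were called higher and 10.5% lower, so the count did not exceed the background. Zfp57, the guardian of methylated imprints, was at 8.93 and 8.56 FPKM in clone 12 (NR6A1 and vector), against 4.60 and 3.68 FPKM in clone 6, a log2 difference of 0.93 ± 0.11 (SE, limma adjusted p = 0.0224). Dnmt1, the maintenance DNA methyltransferase, was at 101.5 and 102.3 FPKM in clone 12, against 82.5 and 71.8 FPKM in clone 6 (limma adjusted p = 0.0487). Hells was higher too (limma adjusted p = 0.0396), and Trim28, the corepressor that ZFP57 recruits, was lower, at 153 and 138.5 FPKM in clone 12, against 189 and 183.5 FPKM in clone 6 (limma adjusted p = 0.0469).

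Of 38 further imprinted genes 18 reached the filter. None passed for NR6A1, nor was any at an unadjusted p under 0.05, where 8.48% of all genes tested were. Between the lines 3 of the 18 were higher and 3 lower in clone 12, where 11.5% of all genes tested were called higher and 10.5% lower. Tnfrsf23 and Tnfrsf22, decoy receptor genes near the Kcnq1ot1-Cdkn1c cluster, were higher, Tnfrsf23 at 11.2 and 10.1 FPKM in clone 12, against 5.58 and 5.67 FPKM in clone 6 (log2 difference 0.82 ± 0.10, SE, limma adjusted p = 0.0225). Tnfrsf22 was at 6.78 and 6.42 FPKM in clone 12, against 2.94 and 3.85 FPKM in clone 6 (limma adjusted p = 0.0358). Atp10a, a flippase gene beside Ube3a, was higher as well (limma adjusted p = 0.0345). Copg2, the neighbour of Mest, was lower in clone 12, at 15.1 and 17.0 FPKM, against 22.5 and 24.7 FPKM in clone 6 (limma adjusted p = 0.0268), the same direction as Mest. The long noncoding RNA Peg13 was lower, at 1.22 and 1.16 FPKM in clone 12, against 2.85 and 2.71 FPKM in clone 6 (limma adjusted p = 0.0405), and so was the peptidase gene H13 (limma adjusted p = 0.045).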

How the data were processed

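Messenger RNA of 4 cultures was sequenced after column purification, DNase treatment and a standard Illumina library, per the labels' protocols. Per the submitters' processing notes the authors used TopHat 1.2.0 and Cufflinks 1.0.3 with build mm9, and they deposited FPKM values. Which annotation and strand setting they used is not given in the sources used here. Cufflinks divides fragments among overlapping transcripts, so low values need not be whole reads.

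Depth was estimated from 1818 long genes with a single annotated transcript, with 1 read worth the inverse of transcript length less 210 bases. Whole reads, to within 0.1, were met for 50.3% to 52.7% of values under 10 reads (20% arise by chance), too few for a count test. Inferred reads of a gene use its longest GENCODE M21 transcript, an upper limit.

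Values were tested as log2(FPKM + 1), a scale that understates changes of low genes, for genes averaging 1 FPKM or more. limma 3.58.1 (R 4.3.3) gave two-sided p-values from a trended fit with clone and virus as terms, 1 residual degree of freedom and a prior of 2.9. Per the labels' protocols both viruses went into each line, so the clone number pairs the libraries. The difference between clones correlated across genes between viruses with r = 0.628, a description, since genes are not independent. Gene lists as a whole and motif shares were described without a test. The genes named were all 36, and in the regulator and further imprinted lists those past the threshold or changed at least 1.5-fold the same way in both clones. Casd1, Tfpi2, Pon2 and Pon3 were added beside the Peg10-Sgce cluster. In the further list 1 gene was not matched. The members and lists were chosen with earlier results of these data known. Alternatives were pseudocounts of 0.1 and 5, a filter of 5 FPKM or none, upper quartile scaling, leaving out short RNA genes such as microRNA and small nucleolar RNA genes, a robust prior, no clone or virus block, and each library left out.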

Additional observations from a re-analysis of the deposited data

Results flagged for a closer look

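For 6 imprinted genes the NR6A1 culture differed from the vector culture in one direction in clone 6 and in the other direction in clone 12. Each clone had 1 culture per virus, and the differences between clones were not tested. The NR6A1 change in clone 12 minus that in clone 6, on the log2(FPKM + 1) scale, was 2.63 for Nnat, which was higher in clone 12 and lower in clone 6. It was -2.19 for Mest and -0.95 for Peg10, both higher in clone 6 and lower in clone 12. It was 0.52 for Ube3a, -0.17 for Sgce and -0.15 for Cdkn1c.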

How the results depend on the processing

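No imprinted gene was called for NR6A1 against vector under any of the 12 alternatives, and the directions of the 15 genes tested stayed in all 4-library settings in that comparison. The number of genes called for NR6A1 against vector was 4, and 7 with a pseudocount of 5, 2 with no filter, 51 without short RNA genes, 38 with a robust prior and 0 whichever library was left out (96 to 286 at an unadjusted p under 0.05). Without the replicate block it was 4, with 156 in place of 962 genes at an unadjusted p under 0.05. Between clones 2490 genes were called, 0 with no filter and 41 to 889 with 1 library left out, and without the block 1993. The number of imprinted genes called between clones was 5, 0 with no filter, 3 of 10 with a filter at 5 FPKM, which removes Plagl1 and Cdkn1c from the test, 0 to 3 with 1 library left out and 5 without the block. Mest and Peg10 passed between clones with a pseudocount of 0.1 (limma adjusted p = 0.0442 and 0.0468) and without short RNA genes (0.0224 and 0.0201). They were farther from the threshold with a robust prior (limma adjusted p = 0.282 and 0.156) and with no filter (0.170 and 0.154). The cause was not tested. With upper quartile scaling the log2 difference of Tssc4 between clones turned to -0.045.

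With 1 library left out the fit has no block, so the clone and the virus mix. The log2 difference for NR6A1 against vector then ran from -0.75 to 2.62 for Mest, -0.46 to 1.09 for Peg10, -1.79 to 0.51 for Plagl1, -0.43 to 1.002 for Nnat, -0.53 to 0.42 for Cdkn1c, -0.27 to 0.31 for Commd1, -0.21 to 0.62 for Impact, -0.0238 to 0.23 for Gnas, -0.23 to 0.29 for Sgce, -0.29 to 0.15 for Ube3a and -0.32 to 0.0704 for Zrsr1. For clone 12 against clone 6 it ran from -0.22 to 0.14 for Cd81, -0.0092 to 0.23 for Grb10, -0.92 to 0.68 for Nnat and -0.039 to 0.0396 for Tssc4. Depth limits the 21 genes below the filter, of which those with any value above 0 were tested in the setting with no filter alone.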

Other observations

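Of the regulators and further imprinted genes that reached the filter, none differed at least 1.5-fold between NR6A1 and vector in either clone. Among all genes tested 9.27% did so in clone 6 and 6.04% in clone 12. Below the filter, where nothing was tested, Ano1, Dcn, Ctcfl, Cobl, Kcnq1 and Gatm differed at least 1.5-fold the same way in both clones. The share of all symbols that did so was not counted, so these genes have no background beside them. All but Ano1 held a 0 in some library, where no fold exists and any value above 0 was counted. Ano1, a calcium-activated chloride channel gene, was at 0.0226 and 0.0233 FPKM in the NR6A1 cultures of clone 6 and clone 12, against 0.477 and 0.544 FPKM with vector. Dcn, the proteoglycan decorin, was listed at 0 in both NR6A1 cultures, against 0.431 and 0.0790 FPKM with vector. Ctcfl, Cobl, Kcnq1 and Gatm were higher with NR6A1 at 0.0471 FPKM or less, a level of a few reads.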
